A study of Mus musculus with 9 samples.

Results

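The 9 genes described here make or convert the amino acids that lie next to glutamate and oxaloacetate: Asns, Aldh18a1, Pycr1, Pycrl, Pck2, Got1, Got2, Gpt2 and Glul. They were found by their gene symbol among the 25175 symbols of each library, and all 9 were listed once in all 9 libraries. All 9 also reached the minimum level for testing, at least 1 FPKM (fragments scaled to transcript length and to the mapped fragments of the library) in at least 3 libraries, together with 11337 genes in all. The 9 members were chosen by results of these same libraries, in which several of them had been seen to be higher with both compounds than with vehicle. Their levels and differences from vehicle, and the ratios and shares built from them, are therefore given as a description, with no p-value. The calls of the fit over all genes are counted for these comparisons beside the share of all genes called. They are counted again under the alternatives in the closing section, and in both places they support nothing. The genes cover proline, asparagine and aspartate, but Glul makes glutamine, Gpt2 makes alanine and Pck2 makes phosphoenolpyruvate.

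The cells were HL-1, a single continuously dividing cell line from mouse atrial muscle, kept in Claycomb medium. Poly(A) RNA was sequenced on the Ion Proton system after 24 h with 5 µM ivermectin, 10 µM importazole or vehicle (0.1% DMSO), with 3 libraries in each group. Ivermectin is an antiparasitic drug that also blocks the nuclear import receptor importin α/β, and importazole is a small molecule that blocks importin-β. The compounds were given at different doses, and the DMSO content of the compound groups is not stated in the labels. The labels do not say that the libraries of a group came from separate cultures, so a p-value here speaks only of the spread among the sequenced samples, which may be technical.

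Asparagine synthetase (Asns) moves the amide nitrogen of glutamine onto aspartate. Proline is made from glutamate. The bifunctional enzyme of Aldh18a1 makes, in mitochondria, the intermediate that becomes pyrroline-5-carboxylate. Pycr1 encodes a mitochondrial and Pycrl a cytosolic reductase that turns this into proline. The aspartate aminotransferases of the cytosol (Got1) and of mitochondria (Got2) exchange the amino group between glutamate and oxaloacetate, and in heart muscle they work in the malate-aspartate shuttle, which carries reducing equivalents into mitochondria. Pck2 is the mitochondrial phosphoenolpyruvate carboxykinase, which draws on oxaloacetate. Gpt2 is the mitochondrial alanine aminotransferase, and Glul is glutamine synthetase, which adds ammonia to glutamate. The transcription factor ATF4 is known to switch on several genes of amino acid synthesis when amino acids run short, through a site that joins parts of a C/EBP and an ATF site.

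Promoter sequence from RefSeq (GRCm38.p6), running from 250 bases before to 50 bases after the start of each gene, was found for 8 of the 9 members and was searched for the letters TGATGNAA on both strands, a C/EBP-ATF motif. It was present in the windows of 4 of the 8, Asns, Pycr1, Pck2 and Got1, and in 1304 of 32851 promoters of the table (3.97%). The E-box CACGTG, which reads the same on both strands and was added after the sequences had been seen, was present in the window of Aldh18a1 and in 2349 of the 32851 promoters (7.15%). The 2 motifs share no base in these windows. The 5 stretches are all the matches found in the 8 windows. Asns, Pycr1 and Pck2, with the C/EBP-ATF motif, were higher with both compounds, and Got1, with the same motif, was not. Aldh18a1 and Gpt2 were also higher, but their windows hold no C/EBP-ATF letters. The members were chosen by these differences, so nothing is read from where the motifs stand. Each stretch runs 5′ to 3′ along the gene's own strand, with the motif in capitals.
Asns, chr6:7693214-7693243, minus strand: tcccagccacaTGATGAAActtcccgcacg
Aldh18a1, chr19:40588487-40588552, minus strand: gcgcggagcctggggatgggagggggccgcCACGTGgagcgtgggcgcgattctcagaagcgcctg
Pycr1, chr11:120643814-120643881, minus strand: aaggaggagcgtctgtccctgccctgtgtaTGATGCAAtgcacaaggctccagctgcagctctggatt
Pck2, chr14:55540133-55540200, plus strand: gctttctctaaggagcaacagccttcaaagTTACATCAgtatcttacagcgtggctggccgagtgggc
Got1, chr19:43524670-43524737, minus strand: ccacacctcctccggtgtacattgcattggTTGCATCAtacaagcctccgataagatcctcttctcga

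The motif read along the gene's strand in Asns and Pycr1 and on the opposite strand in Pck2 and Got1. In Pycr1 and Pck2 it spanned bases -103 to -96 from the RefSeq start and in Got1 bases -102 to -95. The GENCODE start is the same as that of RefSeq for Pck2 and Got1, but for Pycr1 it lies 21 bases upstream, so that the motif of Pycr1 spans bases -82 to -75 from the GENCODE start. In Asns it spanned bases -23 to -16, and because the GENCODE start of Asns lies 45 bases upstream of the RefSeq start, these letters fall inside the first exon of the GENCODE model. Neither set of letters was in the windows of Got2, Gpt2 and Glul. The GENCODE start of Got2 lies 146 bases upstream of the RefSeq start, so much of its window lies after the GENCODE start. A match of letters is a description of the sequence and does not show that a factor binds there.

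**Figure D1:**
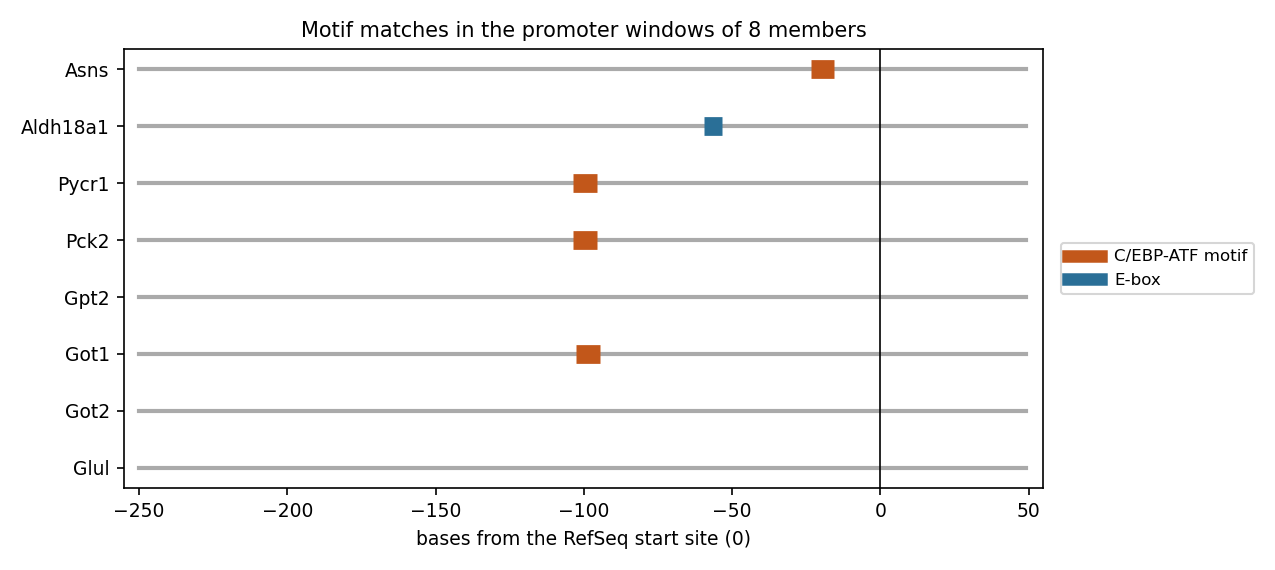
Position of the C/EBP-ATF motif (orange) and the E-box (blue) in the promoter windows of the 8 members with a sequence, in bases from the RefSeq start at 0, with 1 grey line per window. The orange marks of Pycr1, Pck2 and Got1 lie within 1 base of each other, about 100 bases before the RefSeq start, and the mark of Asns lies next to the start.

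The 9 libraries had summed FPKM of 365259 to 416748, and 11055 to 11200 genes per library reached 1 FPKM. FPKM does not give read numbers here, so library depth is unknown. Vehicle 2 and ivermectin 3 list the transcript Yam1 at 0, whereas the other 7 libraries hold 5.86% to 10.4% of their FPKM in it, so results are also given without these libraries where this changed a call. All 11 markers of atrial cardiomyocytes, among them Myh6 and Actc1, were at 1 FPKM or more in all 9 libraries. They summed to 6867 to 7413 FPKM with ivermectin, 7495 to 8036 FPKM with importazole and 7843 to 8967 FPKM with vehicle, so that ivermectin lay below vehicle and importazole overlapped with it. Myh6 was at 443 to 537 FPKM with ivermectin, 507 to 523 FPKM with importazole and 620 to 699 FPKM with vehicle, and Actc1 at 573 to 588 FPKM, 492 to 521 FPKM and 667 to 695 FPKM in the same groups, each lower in every compound library than in every vehicle library. Not all atrial markers were lower. Nppa was at 238 to 260 FPKM with importazole, above all vehicle libraries at 148 to 174 FPKM, and overlapped with vehicle for ivermectin. Tnni3, Ryr2 and Gata4 overlapped with vehicle in both compound groups. Of the markers of other cell types, 1 of 8 for fibroblasts, 1 of 6 for endothelium, 0 of 5 for macrophages and 2 of 4 for smooth muscle were at 1 FPKM or more in all 9. Summed fibroblast markers were 37.0 to 39.0 FPKM with ivermectin, 34.8 to 37.1 FPKM with importazole and 23.8 to 27.0 FPKM with vehicle, in the same order of groups as the 5 members that were higher with both compounds; the marker in all libraries was Ddr2, while 6 of the 8, Col1a2, Col3a1 and Pdgfra among them, stayed under 1 FPKM. Summed smooth muscle markers were 1158 to 1279 FPKM with ivermectin, 1173 to 1285 FPKM with importazole and 1347 to 1404 FPKM with vehicle. Nearly all of this sum was Acta2, at 1020 to 1243 FPKM over the 9 libraries, and Tagln, at 133 to 176 FPKM. Myh11 was at most 0.119 FPKM in any library. The part of these markers in the results was not tested. Endothelial markers summed to 9.005 to 10.3 FPKM with ivermectin, 9.80 to 11.8 FPKM with importazole and 10.3 to 11.3 FPKM with vehicle, and macrophage markers to at most 2.30 FPKM in any library.

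FPKM is scaled to transcript length, so levels of the 9 members can be set side by side. With vehicle, Got1 was the highest at 236 ± 21.7 FPKM (mean ± SD, n = 3 in this and all later group values), then Got2 at 125 ± 6.66 FPKM and Asns at 53.3 ± 2.48 FPKM. Pycrl at 25.2 ± 0.653 FPKM, Aldh18a1 at 24.7 ± 3.10 FPKM, Glul at 19.8 ± 3.73 FPKM and Pck2 at 17.0 ± 1.23 FPKM followed, and the libraries of neighbours among these 4 genes overlapped. Gpt2 at 7.04 ± 1.33 FPKM and Pycr1 at 5.53 ± 0.909 FPKM were the lowest and also overlapped. In both compound groups Aldh18a1 and Pck2 stood above Pycrl in all libraries, and Gpt2 and Pycr1 were again the lowest, with overlapping libraries. With ivermectin Asns, at 129.8 ± 17.3 FPKM, overlapped with Got2 at 130.5 ± 11 FPKM; with importazole Asns, at 106.5 ± 7.36 FPKM, stayed below Got2 at 122.6 ± 8.53 FPKM in all libraries.

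**Figure D2:**
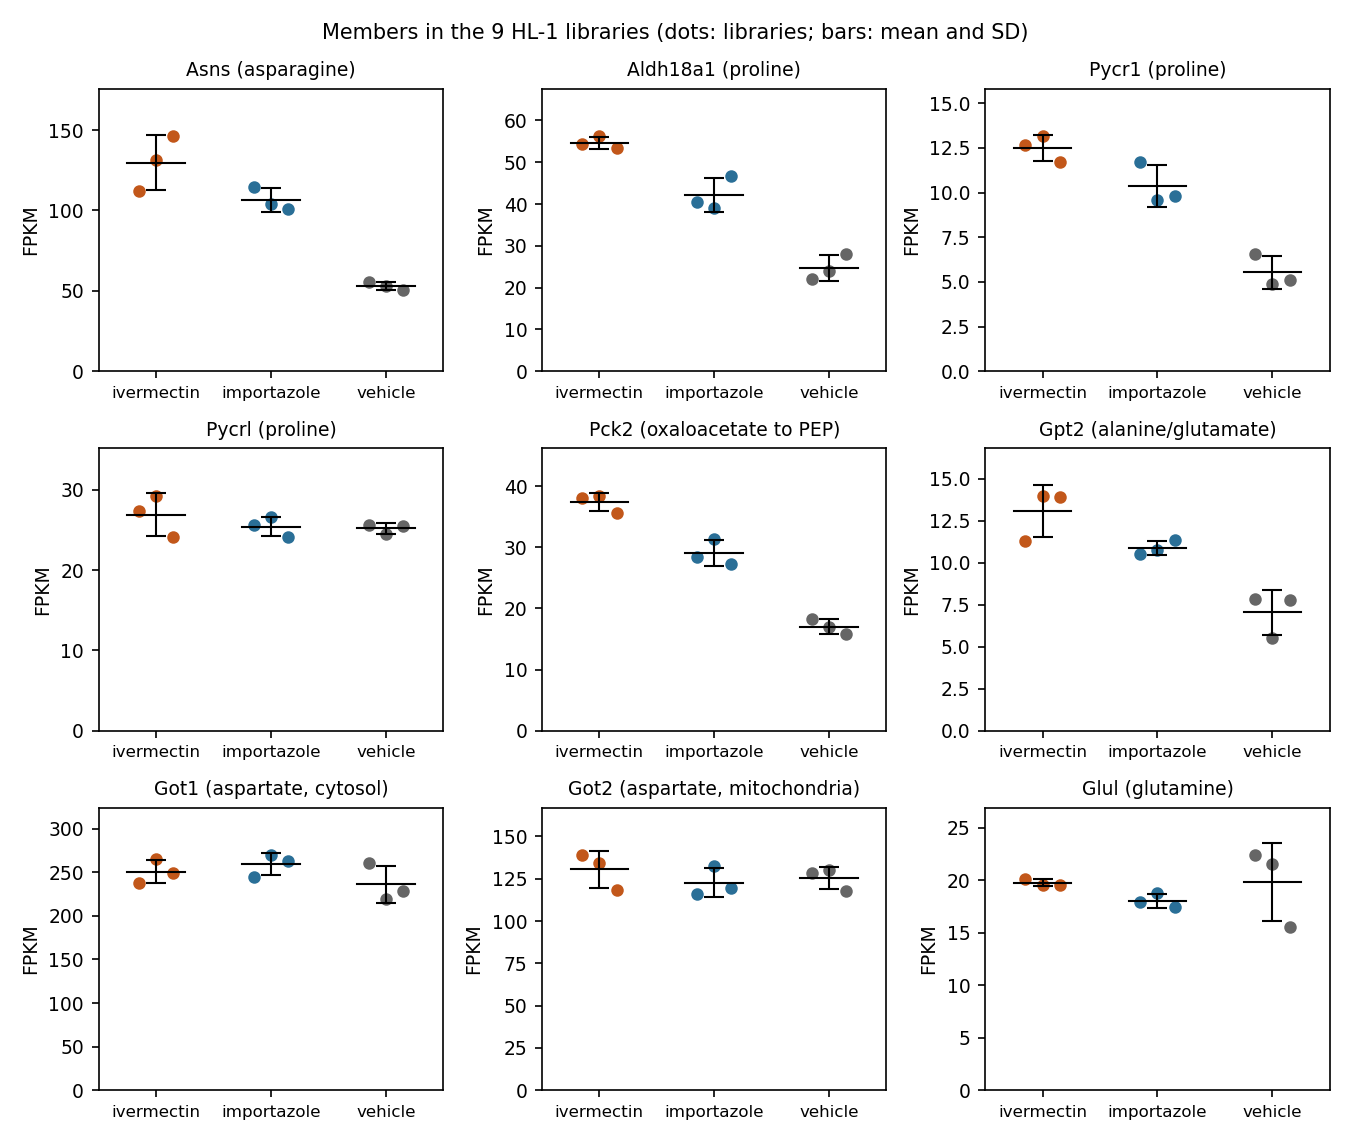
FPKM of the 9 members in each library (dots), with the mean (horizontal line) and SD (bars) of 3 libraries, for ivermectin (orange), importazole (blue) and vehicle (grey); each vertical axis starts at 0. Asns, Aldh18a1, Pycr1, Pck2 and Gpt2 have every compound library above every vehicle library, while the groups of Pycrl, Got1, Got2 and Glul overlap with vehicle.

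Asns (chr6:7675169-7693254, minus strand; this and later gene positions are from GENCODE M21 on GRCm38) had 112, 131 and 146 FPKM in the ivermectin libraries, 115, 104 and 100.6 FPKM in the importazole libraries and 55.7, 53.3 and 50.8 FPKM in the vehicle libraries. All 6 compound libraries lay above all 3 vehicle libraries, and the ivermectin and importazole libraries overlapped. The difference of log2(FPKM + 1), the scale of all differences below, was 1.26 ± 0.09 (SE; 95% interval 1.05 to 1.47) for ivermectin against vehicle and 0.99 ± 0.09 (0.78 to 1.19) for importazole against vehicle. The added 1 makes this scale understate the change of genes with low values. For members, the SE and intervals against vehicle take no account of how the members were chosen. Against the vehicle mean, the mean FPKM was 2.44 times as high with ivermectin and 2 times as high with importazole. Of the 11337 genes tested, 96.2% had a lower mean than Asns with ivermectin, 94.97% with importazole and 89.0% with vehicle. In bulk samples such as these, a change in some of the cells and a change in all of them cannot be told apart.

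Of the proline genes, Aldh18a1 (chr19:40550257-40588463, minus strand), the gene of the entry enzyme, had 54.3, 56.3 and 53.4 FPKM in the ivermectin libraries, 40.5, 39.1 and 46.8 FPKM in the importazole libraries and 22.0, 23.9 and 28.1 FPKM in the vehicle libraries. The 3 groups did not overlap: every ivermectin library was above every importazole library, and every importazole library above every vehicle library. The log2 difference from vehicle was 1.12 ± 0.09 (95% interval 0.92 to 1.33) with ivermectin and 0.75 ± 0.09 (0.54 to 0.96) with importazole. Relative to Oat, which makes the same intermediate from ornithine, the ratio of Aldh18a1 to Oat in FPKM was 1.05, 1.06 and 0.970 in the ivermectin libraries, 0.820, 0.781 and 0.916 in the importazole libraries and 0.452, 0.503 and 0.580 in the vehicle libraries. Oat itself had 53.4 ± 1.62 FPKM with ivermectin, 50.2 ± 0.825 FPKM with importazole and 48.2 ± 0.583 FPKM with vehicle, and did not pass the test in either comparison with vehicle (limma adjusted p = 0.166 for ivermectin and 0.678 for importazole). The E-box shown above stands in the Aldh18a1 window, which holds no C/EBP-ATF letters.

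Pycr1 (chr11:120635712-120643769, minus strand), a mitochondrial reductase of the last step to proline, had 12.7, 13.2 and 11.7 FPKM in the ivermectin libraries, 11.7, 9.57 and 9.79 FPKM in the importazole libraries and 6.57, 4.89 and 5.13 FPKM in the vehicle libraries. All compound libraries were above all vehicle libraries, and the lowest ivermectin library was only just above the highest importazole library. The log2 difference was 1.06 ± 0.11 (95% interval 0.81 to 1.303) for ivermectin and 0.80 ± 0.11 (0.56 to 1.05) for importazole. Pycrl (chr15:75916477-75921560, minus strand), the cytosolic reductase, had 27.4, 29.3 and 24.1 FPKM in the ivermectin libraries, 25.6, 26.6 and 24.2 FPKM in the importazole libraries and 25.7, 24.5 and 25.5 FPKM in the vehicle libraries. These groups overlapped fully. The log2 difference of Pycrl was 0.09 (95% interval -0.08 to 0.26) for ivermectin and 0.01 (-0.16 to 0.19) for importazole, the second of which turned negative under all 3 other scalings of the libraries.

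Within the pair of reductase members, the balance of the summed FPKM lay further toward Pycr1 in compound libraries. Pycr1 made up 31.6%, 31.0% and 32.8% of the sum of Pycr1 and Pycrl in the ivermectin libraries, 31.4%, 26.5% and 28.8% in the importazole libraries and 20.4%, 16.7% and 16.8% in the vehicle libraries. Every compound library was above every vehicle library, and the ivermectin and importazole libraries overlapped. The sum of both genes was 39.5 ± 3.37 FPKM with ivermectin, 35.8 ± 1.69 FPKM with importazole and 30.7 ± 1.46 FPKM with vehicle (SD, n = 3 each). No source used here says how the authors assigned reads shared between similar transcripts.

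**Figure D3:**
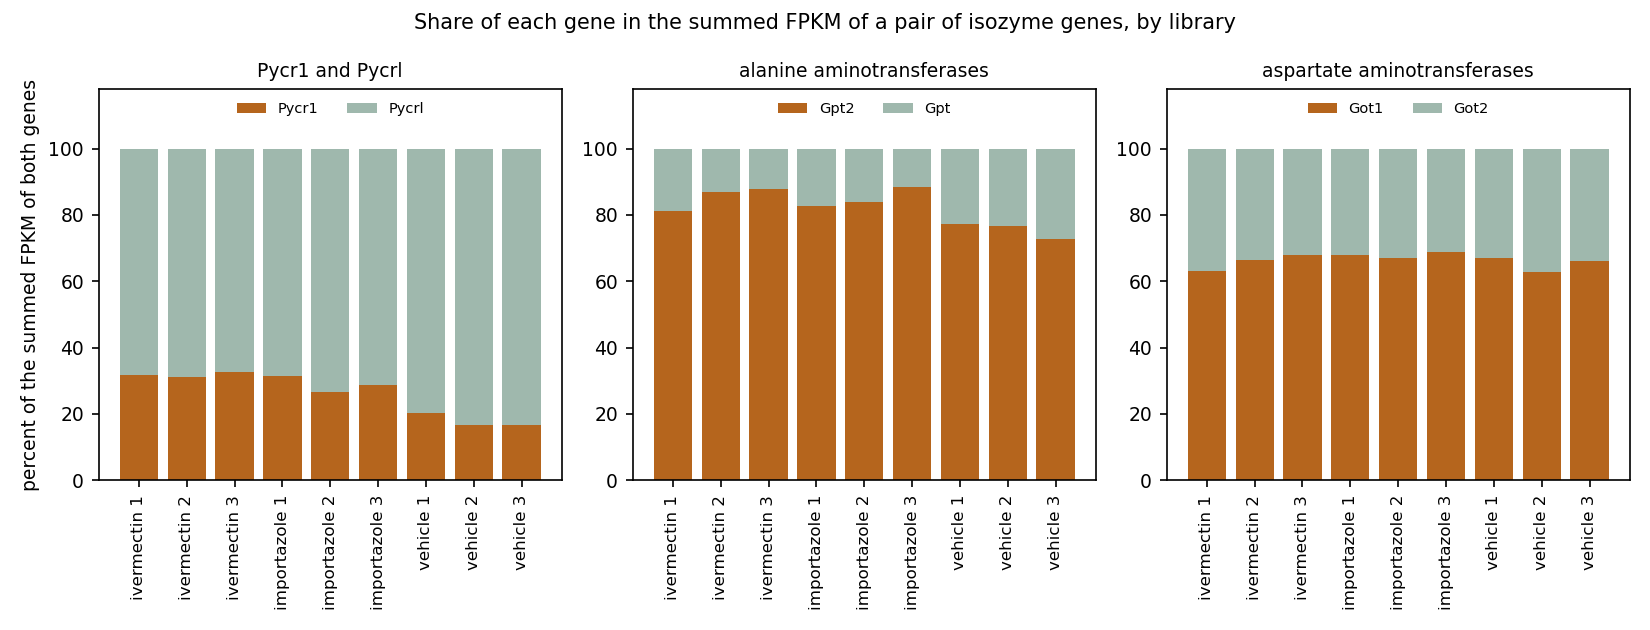
Share (percent) of each gene in the summed FPKM of a pair of genes that encode enzymes of the same reaction, with 1 stacked bar per library. Pycr1 takes 31.0% to 32.8% of the sum with Pycrl in ivermectin libraries, 26.5% to 31.4% in importazole libraries and 16.7% to 20.4% in vehicle libraries; the share of Gpt2 is also above vehicle in every compound library, and the share of Got1 overlaps between the groups.

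Of the genes that use oxaloacetate, Pck2 (chr14:55540266-55551242, plus strand) had 38.1, 38.5 and 35.7 FPKM in the ivermectin libraries, 28.4, 31.4 and 27.3 FPKM in the importazole libraries and 18.3, 16.9 and 15.9 FPKM in the vehicle libraries. As for Aldh18a1, the 3 groups were fully separate, with ivermectin highest and vehicle lowest. The log2 difference was 1.09 ± 0.08 (95% interval 0.92 to 1.26) for ivermectin and 0.74 ± 0.08 (0.57 to 0.91) for importazole. Pck1, the cytosolic form of the enzyme, was at most 0.0737 FPKM in any library. Pcx, pyruvate carboxylase, supplies oxaloacetate in mitochondria, and the ratio of Pck2 to Pcx in FPKM was 1.92 ± 0.0265 with ivermectin, 1.46 ± 0.0798 with importazole and 0.810 ± 0.0412 with vehicle. Pcx did not pass in either comparison with vehicle, at log2 differences of -0.11 with ivermectin (limma adjusted p = 0.416) and -0.07 with importazole (0.674). An antisense transcript shares 53 exonic bases with Pck2, 0.68% of its exonic length, and no source used here says whether strand was used in counting.

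Got1 (chr19:43499752-43524605, minus strand) had 238, 265 and 249 FPKM in the ivermectin libraries, 245, 269.8 and 263 FPKM in the importazole libraries and 260.4, 219 and 229 FPKM in the vehicle libraries. The groups overlapped, with vehicle 1 above several compound libraries. The log2 difference was 0.09 (95% interval -0.08 to 0.26) for ivermectin and 0.14 (-0.03 to 0.31) for importazole. The window of Got1 matches the same C/EBP-ATF motif as those of Pck2 and Pycr1, at nearly the same distance from the RefSeq start. Got2 (chr8:95864134-95888547, minus strand) had 139, 134 and 118.1 FPKM in the ivermectin libraries, 116, 132 and 119 FPKM in the importazole libraries and 128, 130.2 and 117.8 FPKM in the vehicle libraries. These groups overlapped, and the log2 difference was 0.06 (95% interval -0.12 to 0.23) for ivermectin and -0.03 (-0.21 to 0.14) for importazole, the second of which became positive, at 0.0042, without importazole 1.

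Values of Got2 are uncertain in level, since transcripts of the pseudogene Got2-ps1 are 99.1% identical to it over 1293 bases and those of the noncoding gene Gm10874 98.8% over 1637 bases, and 9.0% of its exonic length overlaps Gm45760 on the opposite strand. Got2-ps1 was listed at 23.4 to 29.5 FPKM. Summing Got2 and Got2-ps1 gave 158 ± 10.2 FPKM with ivermectin, 149 ± 10.8 FPKM with importazole and 152 ± 9.26 FPKM with vehicle, with overlapping libraries. The share of Got1 in the summed FPKM of Got1 and Got2 was 65.8% ± 2.38 with ivermectin, 67.9% ± 0.864 with importazole and 65.2% ± 2.26 with vehicle, a range that overlapped between the groups.

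Of the genes that take from or add to glutamate, Gpt2 (chr8:85492576-85527560, plus strand) had 11.3, 14.0 and 13.9 FPKM in the ivermectin libraries, 10.51, 10.76 and 11.34 FPKM in the importazole libraries and 7.83, 5.505 and 7.78 FPKM in the vehicle libraries. All compound libraries were above all vehicle libraries, and the ivermectin and importazole libraries overlapped. The log2 difference was 0.82 ± 0.12 (95% interval 0.54 to 1.09) for ivermectin and 0.58 ± 0.12 (0.30 to 0.85) for importazole. Gpt, the cytosolic alanine aminotransferase, had 2.23 ± 0.365 FPKM with ivermectin, 1.92 ± 0.374 FPKM with importazole and 2.30 ± 0.633 FPKM with vehicle, and did not pass (limma adjusted p = 0.962 for ivermectin and 0.659 for importazole). The share of Gpt2 in the summed FPKM of both genes was 81.1% to 87.8% in ivermectin libraries, 82.7% to 88.3% in importazole libraries and 72.6% to 77.2% in vehicle libraries. A processed pseudogene, Gm5049, is 90.2% identical to Gpt2 transcripts over 1556 bases, so the level of Gpt2 is uncertain to that extent.

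Glul (chr1:153899944-153909723, plus strand) had 20.1, 19.5 and 19.6 FPKM in the ivermectin libraries, 17.9, 18.8 and 17.4 FPKM in the importazole libraries and 22.4, 21.5 and 15.5 FPKM in the vehicle libraries. Vehicle 3 was below all other libraries and vehicle 1 above them, so both compound groups lay within the range of vehicle. The log2 difference was 0.01 (95% interval -0.24 to 0.26) for ivermectin, which turned negative when Yam1 was removed and the libraries rescaled, and -0.11 (-0.36 to 0.14) for importazole. Without vehicle 3 the difference for ivermectin was -0.15. The ratio of Asns, which uses glutamine, to Glul, which makes it, was 5.56, 6.72 and 7.48 in the ivermectin libraries, 6.42, 5.55 and 5.78 in the importazole libraries and 2.49, 2.48 and 3.27 in the vehicle libraries, with no overlap between either compound and vehicle. This separation repeats the difference of Asns given above, as Glul itself overlapped with vehicle. Glns-ps1, a processed pseudogene 96.8% identical to Glul over 1126 bases, was listed at 0.711 to 1.84 FPKM, and Teddm2 shares 3.49% of the exonic length of Glul on the opposite strand, so the level of Glul is uncertain to that extent.

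Across the 9 members, the fit over all genes called Asns, Aldh18a1, Pycr1, Pck2 and Gpt2 for ivermectin against vehicle (limma, Benjamini-Hochberg adjusted p under 0.05), all 5 higher. In that comparison 4.31% of the 11337 genes passed in either direction and 1.79% were higher; the same 5 members had no overlap between the groups, against 12.4% of all genes with all 3 ivermectin libraries above all 3 vehicle libraries. For importazole against vehicle it called the same 5, all higher, where 2.26% of all genes passed in either direction and 1.69% were higher. These 5 again had no overlap, as had 16.5% of all genes in the upward direction. The importazole call of Gpt2 was lost without vehicle 2 (log2 difference 0.43), vehicle 3 (0.65), ivermectin 2 (0.58), importazole 1 (0.60), importazole 2 (0.58) or importazole 3 (0.55), or without both vehicle 2 and ivermectin 3 (0.43). Because the members were chosen by these comparisons, and both use the same 3 vehicle libraries, nothing is read from these counts. The median log2 difference over the 9 members was 0.82 for ivermectin and 0.58 for importazole, against 0.014 and 0.041 over all genes. The split of all calls was 203 higher and 286 lower for ivermectin; for importazole it was 192 higher and 64 lower, or 159 higher and 117 lower with quantile normalization.

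**Figure D4:**
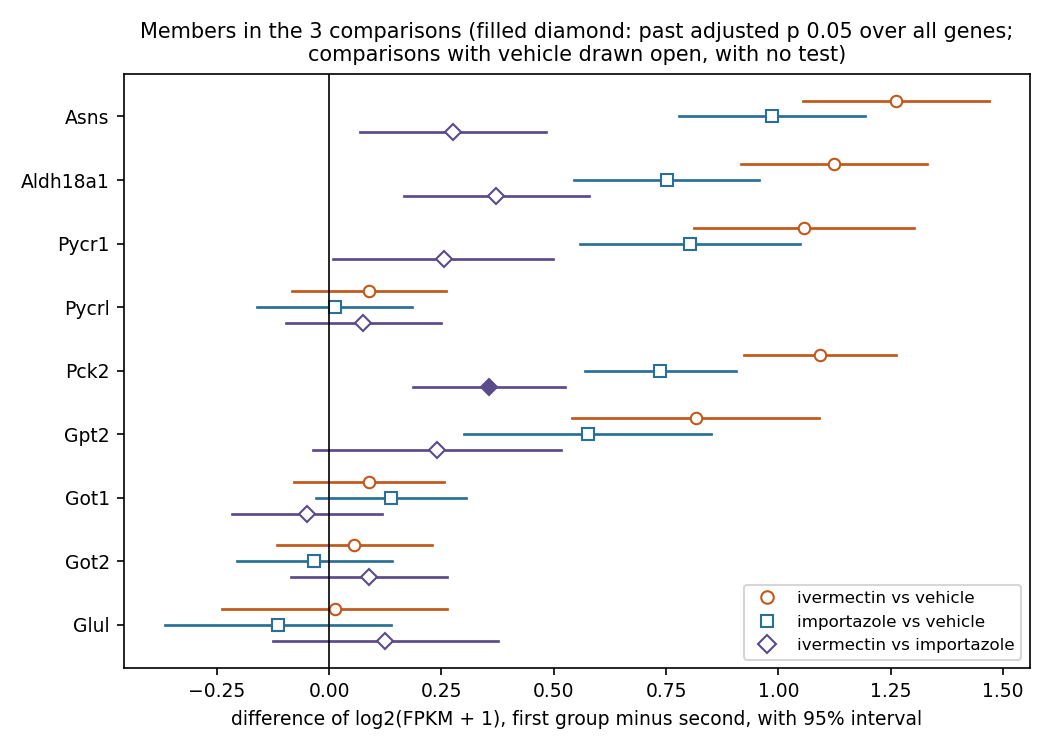
Difference of log2(FPKM + 1) with its 95% interval for each member, for ivermectin minus vehicle (orange circles), importazole minus vehicle (blue squares) and ivermectin minus importazole (purple diamonds); marks against vehicle are open and carry no test, and a filled diamond passed an adjusted p under 0.05 over all genes. Asns, Aldh18a1, Pycr1, Pck2 and Gpt2 lie between 0.58 and 1.26 against vehicle, the other 4 members lie between -0.11 and 0.14, and only Pck2 is filled for ivermectin minus importazole.

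The direct comparison of ivermectin with importazole shows how far the compounds differed at these doses, in the same libraries as the comparisons that chose the members. Earlier results of these data were known when the members were chosen, so member calls and p-values in this comparison are a description. Pck2 was the 1 member that passed, at 37.4 ± 1.51 FPKM in ivermectin libraries and 29.1 ± 2.12 FPKM in importazole libraries; its log2 difference was 0.36 ± 0.08 (95% interval 0.19 to 0.52, limma adjusted p = 0.0306). All 3 ivermectin libraries were above all 3 importazole libraries. This call was lost without vehicle 2 (adjusted p = 0.052), ivermectin 1 (0.0977), ivermectin 2 (0.0902), importazole 1 (0.104) or importazole 3 (0.118), and without both vehicle 2 and ivermectin 3 (0.0676), within a range of 0.00941 to 0.118 over all 21 alternatives, while the log2 difference stayed between 0.31 and 0.41 when 1 library was left out. Among all genes 3.42% passed in either direction and 0.714% were higher with ivermectin. Aldh18a1, at 54.7 ± 1.45 FPKM in ivermectin libraries and 42.1 ± 4.06 FPKM in importazole libraries, differed by 0.37 (0.17 to 0.58, adjusted p = 0.0582), and it passed without vehicle 1 (adjusted p = 0.0435) or vehicle 3 (0.0342), in the fit of the 6 libraries alone and with a filter at 5 FPKM (range 0.0342 to 0.195). Asns differed by 0.28 (0.07 to 0.48, adjusted p = 0.138) and passed without ivermectin 1 (log2 difference 0.38, adjusted p = 0.0488), with quantile normalization and after removal of Yam1 (range 0.0238 to 0.329).

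The other members did not pass in the direct comparison. Pycr1 differed by 0.25 (95% interval 0.01 to 0.50, limma adjusted p = 0.245) and Gpt2 by 0.24 (-0.03 to 0.52, adjusted p = 0.333). Pycrl, Got1, Got2 and Glul had differences of -0.05 to 0.13 with intervals that all included 0, the widest of them that of Glul, -0.13 to 0.38. Aldh18a1, Pycr1, Pck2 and Glul had all ivermectin libraries above all importazole libraries, 4 of 9 members, where 8.04% of all genes did. At an unadjusted p under 0.05, 4 members were higher with ivermectin and 0 lower, as were 6.13% and 12.8% of all genes in these directions. The split of all calls was 81 higher and 307 lower with ivermectin, or 191 higher and 274 lower with quantile normalization.

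The members also differed in how they followed one another over the 9 libraries. Pearson correlations of log2(FPKM + 1) among Asns, Aldh18a1, Pycr1, Pck2 and Gpt2 were 0.906 to 0.966, highest for Pycr1 with Pck2 and lowest for Pck2 with Gpt2. These points share their libraries and fall into the 3 groups, so the group differences enter these correlations. Got1 correlated with these 5 at 0.396 to 0.651, and Glul at -0.208 to 0.055. Among the 4 members that overlapped with vehicle, the highest correlation was that of Pycrl with Got2, at 0.685.

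Of 7666 other named genes with a mean of at least 5 FPKM, the 3 with the highest correlation to Asns over the 9 libraries were Psph (0.989), Cox6a2 (0.988) and Eif3c (0.987). For Pck2 they were Slc38a3 (0.984), Mthfd2 (0.980) and Slc1a4 (0.980), and for Aldh18a1 Gstm5 (0.987), Cars (0.980) and Gars (0.979). For Pycr1 they were Ankrd46 (0.988), Slc6a9 (0.975) and Cars (0.974), and for Gpt2 Rpp14 (0.963), Gars (0.957) and Ano10 (0.956). The closest genes to these 4 members were Llgl1 for Pycrl (0.930), C2cd5 for Got1 (0.958), Trappc9 for Got2 (0.942) and Psmb6 for Glul (0.951). The highest of 7666 correlations over 9 points is high by selection, and these values are a description.

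The genes around the members were taken as 5 lists of metabolic neighbours, 90 genes in all, of which 73 reached the level for testing. These lists were drawn up with earlier results of these data known, so their counts are no independent evidence. For ivermectin against vehicle 6 of the 73 were higher, 1 was lower and 66 did not pass, which is 9.59% passed, against 4.31% of all genes. For importazole 7 were higher, 0 lower (3 lower at an unadjusted p under 0.05) and 66 did not pass, again 9.59%, against 2.26% of all genes. The median log2 difference of the 73 was 0.07 for ivermectin and -0.01 for importazole, against 0.014 and 0.041 over all genes. At an unadjusted p under 0.05, 10.5% of all genes were higher and 10.3% lower for ivermectin, and 11.3% higher and 4.48% lower for importazole, for the unadjusted counts given here and below. Leaving out single libraries left 3 to 7 calls for ivermectin, with 3 without any 1 of the vehicle libraries, and 3 to 8 for importazole, with 3 without vehicle 3, importazole 1 or importazole 2. Between the compounds 2 of the 73 were higher with ivermectin, 1 was lower and 70 did not pass (4.11% passed, against 3.42% of all genes), and 0 were left without ivermectin 1 or importazole 1. Over the 21 alternatives this count was 0 to 9, with 6 to 9 under the other 3 scalings of the libraries, the 9 under quantile normalization.

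Among users of asparagine and aspartate, Nars, the asparaginyl-tRNA synthetase, rose to 53.5 ± 3.57 FPKM with ivermectin and 49.9 ± 1.204 FPKM with importazole, against 32.7 ± 1.3 FPKM with vehicle. Its log2 difference was 0.69 for ivermectin (limma adjusted p = 0.000166) and 0.59 for importazole (0.000643). Among proline and ornithine genes, Eprs, the glutamyl-prolyl-tRNA synthetase, rose to 58.2 ± 2.09 FPKM with ivermectin and 52.1 ± 2.05 FPKM with importazole, against 39.0 ± 0.290 FPKM with vehicle (adjusted p = 0.000265 and 0.0035). Among genes of glutamate and glutamine, Psat1, which uses glutamate to make phosphoserine, rose to 91.9 ± 1.301 FPKM with ivermectin and 90.1 ± 1.80 FPKM with importazole, against 60.6 ± 4.05 FPKM with vehicle (adjusted p = 0.000275 and 0.000523). These 3 genes passed in both comparisons under all 21 alternatives, and Psat1 has a processed pseudogene 90.7% identical over 1059 bases. The other calls for ivermectin were those of Adsl, Odc1 and Suclg2, with log2 differences of 0.30, 0.27 and 0.30, and of Pkm, with -0.47; without vehicle 3 they did not pass, at 0.28, 0.27, 0.30 and -0.49. The other calls for importazole were those of Cad, Odc1, Gfpt2 and Slc1a3, with 0.40, 0.31, 0.54 and 0.53; without vehicle 3 they did not pass, at 0.38, 0.30, 0.46 and 0.55. Odc1, Pkm and Suclg2 have processed pseudogenes over 95% identical to them, so their levels are uncertain.

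Among genes that break these amino acids down, Prodh, proline dehydrogenase, had 4.03 ± 0.738 FPKM with ivermectin, 2.86 ± 0.378 FPKM with importazole and 2.66 ± 0.447 FPKM with vehicle and did not pass (limma adjusted p = 0.0933 and 0.824). Aspg, an asparaginase, was at most 0.0432 FPKM in any library. Asrgl1, another asparaginase, had 9.48 ± 2.545 FPKM with ivermectin, 8.26 ± 1.26 FPKM with importazole and 6.45 ± 1.27 FPKM with vehicle. Its libraries overlapped with vehicle for both compounds, and it did not pass (limma adjusted p = 0.147 and 0.403). Of the 8 tested genes of the malate-aspartate shuttle and its carriers, 0 passed for ivermectin by limma (1 higher and 1 lower at an unadjusted p under 0.05). The one with the smallest p was Slc25a10, the dicarboxylate carrier, at 19.2 ± 1.88 FPKM with ivermectin and 24.1 ± 1.14 FPKM with vehicle (adjusted p = 0.0584). Of the 22 tested genes of oxaloacetate, phosphoenolpyruvate and the TCA cycle, 0 passed for importazole (0 higher and 1 lower at an unadjusted p under 0.05), the smallest p being that of Ogdh, a subunit of the 2-oxoglutarate dehydrogenase, at 146 ± 5.43 FPKM with importazole and 167 ± 3.08 FPKM with vehicle (adjusted p = 0.14).

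**Figure D5:**
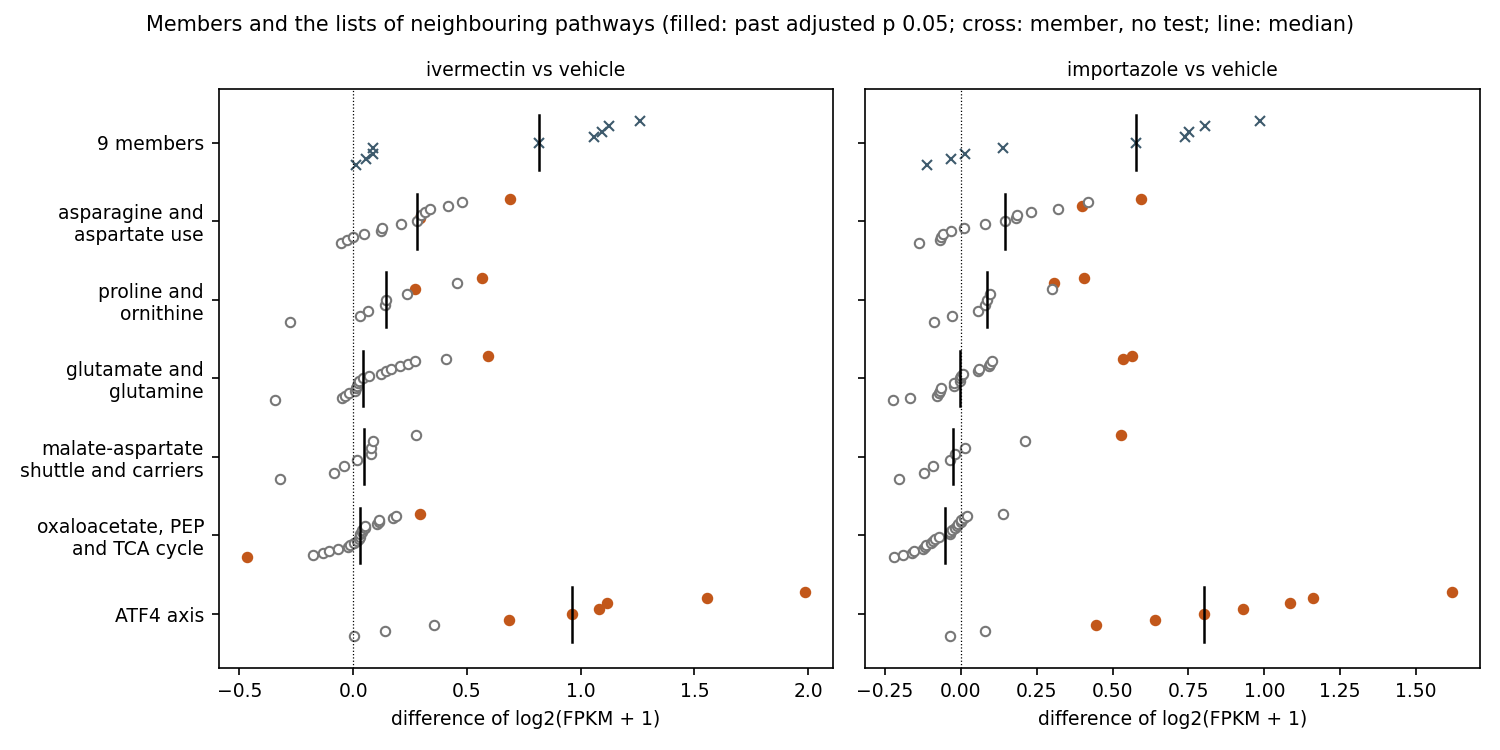
Difference of log2(FPKM + 1) from vehicle for each tested gene of the 9 members, the 5 lists of metabolic neighbours and the ATF4 axis, for ivermectin (left) and importazole (right); filled dots passed an adjusted p under 0.05, members are crosses with no test, and the vertical line is the median of a list. The 66 neighbours that did not pass in each panel are the open dots of the 5 middle lists, and the ATF4 axis has medians of 0.96 and 0.80.

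The ATF4 axis was taken as 10 genes, ATF4 itself, its partners and the stress genes it acts with, of which 9 were tested. For ivermectin 6 were higher and 0 lower, and for importazole 7 were higher and 0 lower (7 higher and 0 lower in both at an unadjusted p under 0.05), with median log2 differences of 0.96 and 0.80. Of all genes 1.79% were higher for ivermectin and 1.69% for importazole. Not the whole list rose: 3 genes did not pass for ivermectin and 2 for importazole, and the lowest log2 differences were 0.006 and -0.04. Leaving out single libraries left 6 calls for ivermectin and 4 to 7 for importazole, with 4 without vehicle 2 or importazole 1. Atf4 rose to 156 ± 10.2 FPKM with ivermectin and 153 ± 8.81 FPKM with importazole, against 79.7 ± 6.26 FPKM with vehicle (limma adjusted p = 4.21e-05 and 0.000101). Trib3, a pseudokinase induced by ATF4, rose to 51.6 ± 1.05 FPKM with ivermectin and 39.8 ± 1.97 FPKM with importazole, against 12.3 ± 0.692 FPKM with vehicle (adjusted p = 1.03e-07 and 9.2e-07). Between the compounds Trib3 was higher with ivermectin (log2 difference 0.37, adjusted p = 0.0117), a call lost without importazole 2 (log2 difference 0.34) or importazole 3 (0.36); Atf4 differed by 0.04 between the compounds (adjusted p = 0.861). Atf5, another factor of the same response, rose in both comparisons as well, at log2 differences of 1.08 for ivermectin and 1.16 for importazole, but it shares 82 exonic bases with Nup62 on the opposite strand. The list was known from these data to contain genes that differ, so its counts are no independent evidence.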

How the data were processed

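Transcript levels were measured in 9 libraries of HL-1 cells, 3 per group, and the labels give group and replicate number. Each deposited file pairs gene symbols with FPKM values made by the authors, per the file headers. Cufflinks, STAR, Bowtie2 and Bowtie are named without versions or roles in the submitters' processing notes, with mm10 and GRCm38 as builds. Annotation, strand use and filters are not stated in any source used here. Since FPKM is a share of mapped fragments, an abundant transcript missing from a library can raise the others. Whether this happened in vehicle 2 and ivermectin 3, which hold no Yam1, was not tested. The median log2 level was 3.42 in vehicle 2 and 3.50 in ivermectin 3, against 3.44 to 3.53 in the libraries that hold Yam1.

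Values of 48 symbols listed more than once, no member among them, were summed. The 11337 genes that reached 1 FPKM in 3 or more libraries were fitted as log2(FPKM + 1) with limma 3.58.1 (R 4.3.3) over the 9 libraries, with group as the only term, trend and robust moderation, two-sided tests and Benjamini-Hochberg adjustment over all genes. The procedure was tested on simulated data. The members, lists and tests were chosen with earlier results of these data known. All members are named. Each list may give up to 4 called genes of smallest p per comparison, or the 1 with the smallest p where none was called, and each member the 3 genes of highest correlation. Oat, Pcx, Gpt, Pck1, Prodh, Aspg and Asrgl1 are named outside this rule, since they share a substrate or reaction with a member. Positions are from GENCODE M21 on GRCm38. Near copies are transcripts of other genes at least 80% identical over at least 400 bases by blastn. Alternatives were other pseudocounts, filters, scalings, fits and thresholds and leaving out libraries. The values of 1 listed gene are not reported here. Python 3.11.15 with matplotlib 3.10.9 drew the figures.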

Additional observations from a re-analysis of the deposited data

How the results depend on the processing

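The members were chosen by the comparisons with vehicle, so their calls there under the alternatives are a description and support nothing. For ivermectin against vehicle the fit called the same 5 members under all 21 alternatives, where 173 to 631 of all genes were called. For importazole against vehicle it called Asns, Aldh18a1, Pycr1 and Pck2 under all 21, and Gpt2 under 10, so that 4 to 5 members were called when single libraries were left out. Over the 21 alternatives 108 to 320 of all genes were called in that comparison. For ivermectin against importazole 0 members passed with no filter, at an adjusted p under 0.01 and without both vehicle 2 and ivermectin 3; 2 passed with a filter at 5 FPKM, quantile normalization, removal of Yam1 and the 6 libraries alone; leaving out single libraries gave 0 to 2. The cause of these changes was not tested. With the replicate number as a block (replicate block), 5 members passed for ivermectin, 4 for importazole (Gpt2 was lost) and 1 in the direct comparison. Correlations of deviations from the group means were -0.2095 to 0.145 between same-numbered libraries of different groups. Between the other pairs of different groups they were -0.2195 to 0.3067, the highest for vehicle 2 with ivermectin 3, the libraries with Yam1 at 0. With 3 libraries per group these values cannot tell whether a number marks a shared culture or day.

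Directions turned only in members near 0. Glul for ivermectin was -0.0010 after removal of Yam1 and -0.1455 to 0.1047 when single libraries were left out (-0.1455 without vehicle 3, -0.0013 without ivermectin 1). Pycrl for importazole was -0.0389 with quantile normalization, -0.0334 with median-of-ratios scaling, -0.0306 after removal of Yam1, -0.0079 without both vehicle 2 and ivermectin 3 and -0.0179 to 0.0475 when single libraries were left out (-0.0079 without vehicle 2). Got2 for importazole was -0.0886 to 0.0042 when single libraries were left out. Over all genes, 173 to 631, 108 to 320 and 150 to 465 passed for ivermectin, importazole and the direct comparison over the 21 alternatives, against 489, 256 and 388; when single libraries were left out, 243 to 399, 128 to 320 and 177 to 396 passed.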
